A study of Mus musculus with 15 samples.

Results

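Collagens are the main structural proteins of connective tissue, and each is built from chains that carry long runs of a repeating triplet starting with glycine. Fibrillar collagens form the banded fibrils that give the dura, the outer membrane around the brain, its strength. Basement membrane collagens form sheets under epithelia and around vessels, and other collagens form beaded filaments, coat fibrils or build short networks. In connective tissue these chains are made chiefly by fibroblasts, osteoblasts and chondrocytes, whereas macrophages take up and degrade collagen.

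The collagen chain genes were all genes whose symbol has the form Col, a number, a and a number, which gave 44 of the 53546 symbols in the count table. They comprised 11 fibrillar genes, 8 basement membrane genes and 25 others. The counts came from bulk RNA-seq of cells that were sorted as CD206-positive out of dura mater, from C57BL/6J animals, where CD206 is the product of Mrc1. All animals carried 1 Cx3cr1-GFP allele next to a wild-type Cx3cr1 allele, no group was treated, and each age had 3 libraries. The ages were E14.5 in the embryo and, after birth, P3, P10, P21 and P56, where the number is the postnatal day. Replicates were numbered 1 to 3, or 4 to 6 at P56. The P56 libraries were sequenced in a project of their own, so P56 and that project cannot be told apart. Cells of each age came from 3 to 5 mice, per the design text.

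Total counts ranged from 17550170 to 30614583 per library. Levels are given as CPM of the total count, meaning each count over the total count of its library on the usual CPM scale, and 1 count is worth more in a shallow library than in a deep one. The 15 macrophage markers summed to between 23970 and 46650 CPM in every library, with Mrc1 at 1416 CPM or more. The libraries of 1 age did not agree in their collagen content. E14.5 replicate 3 held 871 CPM of collagen chains, against 68.6 in replicate 1 and 96.3 in replicate 2, and it had the highest level of 22 of the 25 collagen genes that reached 30 counts in some library of that age (88.0%, against 33.1% over all genes). P10 replicate 2 had the lowest level of 20 of 28 such genes at its age (71.4%, against 38.8% over all genes). Calls and folds of collagen genes that changed without either library are given with and without it.

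The coding sequences show what sets the classes apart, and short stretches of 3 chains are printed for that reason. Each was read from GENCODE M21 transcripts, 5′ to 3′, and capitals mark the GG of glycine codons (GGN) that open a triplet within a run. The stretch of Col1a1 (chromosome 11, codons 168 to 185) lies in an unbroken run. That of Col4a1 (chromosome 8, codons 154 to 177) holds an interruption just after the longest run of that gene, seen as a length of lower case. That of Col6a1 (chromosome 10, codons 256 to 273) is from its short collagenous part.
Col1a1: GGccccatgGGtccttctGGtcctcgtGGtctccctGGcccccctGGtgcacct
Col4a1: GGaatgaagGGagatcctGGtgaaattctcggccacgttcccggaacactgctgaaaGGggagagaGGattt
Col6a1: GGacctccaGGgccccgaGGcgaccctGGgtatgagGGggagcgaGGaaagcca

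Counted over runs of at least 5 triplets, the longest run had a median of 338 triplets in the 11 fibrillar genes, with a range of 216 to 344. In the 8 basement membrane genes the median was 41, with a range of 30 to 66, and in the other 25 it was 52, with a range of 23 to 113. The chains of type IV collagen carried 22 to 27 separate runs, whereas Col1a1, Col1a2 and Col3a1 carried 2 each.

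The 120 bases before the start site are shown for Col1a2, the member with the most counts, and for Col6a1 and Col8a1, which passed the test between E14.5 and P21. They were taken from the RefSeq promoter table of GRCm38.p6, which is not known to be the build of the authors, at chr6:4505498-4505617 (plus strand), chr10:76726045-76726164 (minus strand) and chr16:57754738-57754857 (minus strand). Capitals mark matches, on either strand, to the motif CCAAT, to the motif TATAAA or to the motif GGGCGG, and overlapping matches are all marked.
Col1a2: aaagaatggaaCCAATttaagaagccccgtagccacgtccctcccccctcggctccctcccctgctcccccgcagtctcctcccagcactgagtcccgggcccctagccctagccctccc
Col6a1: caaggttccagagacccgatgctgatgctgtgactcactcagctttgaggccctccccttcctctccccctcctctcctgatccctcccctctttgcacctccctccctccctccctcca
Col8a1: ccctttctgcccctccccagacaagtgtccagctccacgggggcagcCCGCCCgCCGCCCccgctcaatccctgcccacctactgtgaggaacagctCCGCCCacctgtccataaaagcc

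The table held 38 windows for 35 of the 44 genes. In the 250 bases before the start, 34.2% of these windows held CCAAT, against 33.8% of all 32851 windows. TATAAA was in 13.2% against 12.4%, and GGGCGG in 57.9% against 32.7%. The printed bases of Col6a1 held no match. The matches are a description of letters and not of bound sites. The start sites of Col4a1 and Col4a2 lie 21 bases apart on opposite strands, and the exons of these genes overlap in GENCODE M21.

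Collagen chains were a small part of every library, and that part was largest from P3 to P21. Their summed level was 602, 1955 and 2712 CPM in the P3 libraries, 2526, 708 and 2813 CPM at P10, and 1917, 1236 and 1081 CPM at P21. At P56 it was 80.2, 116 and 130 CPM, below every library of P3, P10 and P21. E14.5 replicate 2 was in the range of P56 and replicate 1 just below it, and replicate 3 was in the range of P3 to P10. As a share of all counts, collagens made up 0.00686% to 0.0871% at E14.5, 0.0602% to 0.281% from P3 to P21, and 0.00801% to 0.013% at P56. In bulk RNA, fewer cells of a type and less RNA per cell cannot be told apart.

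Of the 44 genes, 12 had a count in all 15 libraries and 9 never reached 10 counts in any library. The filter on low counts kept 29 genes for testing, which were 10 fibrillar, 5 basement membrane and 14 other genes. Since the filter keeps genes by their level in some libraries, counts over these 29 are not counts over the 44. The 15 genes left out were Col24a1, Col4a3, Col4a4, Col4a6, Col6a4, Col6a5, Col6a6, Col7a1, Col10a1, Col13a1, Col17a1, Col20a1, Col22a1, Col25a1 and Col28a1. Col6a5 reached 5.59 CPM in P21 replicate 3 and 2.03 CPM in P10 replicate 1, and had 0 counts in 12 libraries. No library exceeded 1.495 CPM for any of the other genes left out.

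**Figure D1:**
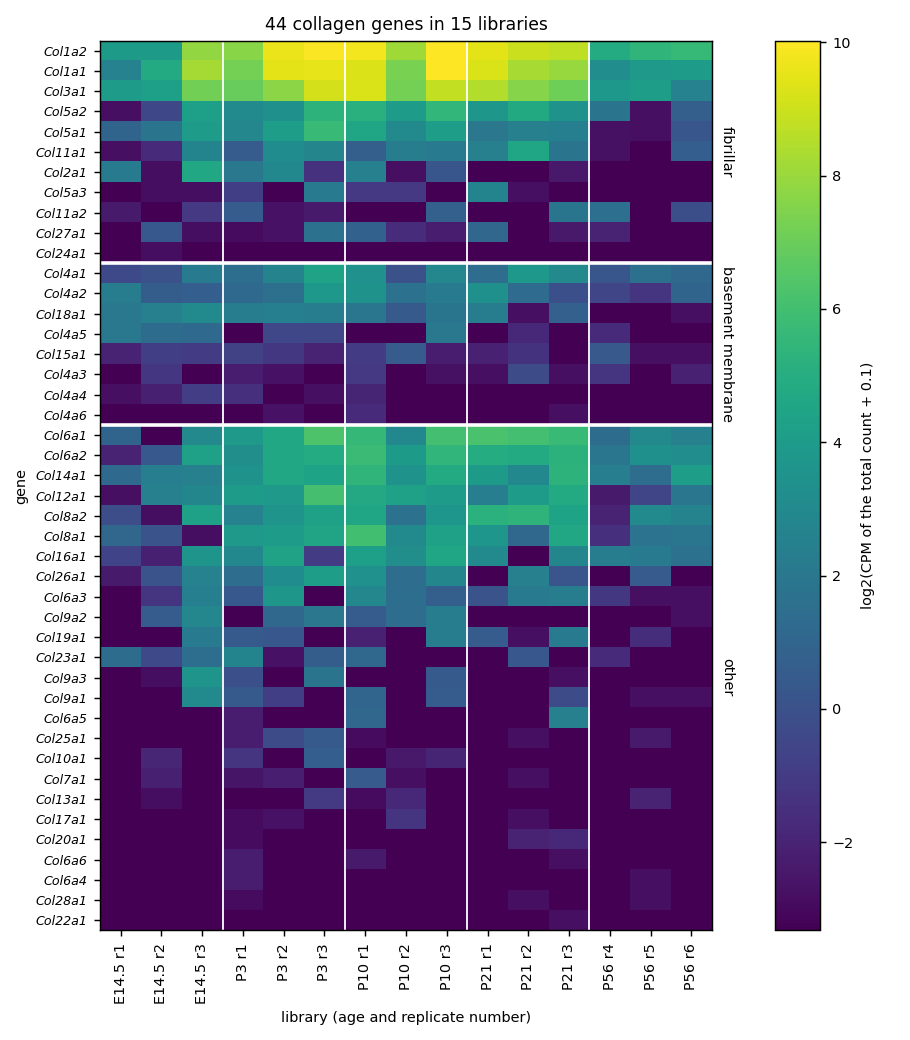
Level of each of the 44 collagen genes (rows, sorted by mean level within a class) in each of the 15 libraries (columns), as log2(CPM of the total count + 0.1). By mean level Col1a2, Col1a1 and Col3a1 lead in every age, though Col14a1 is above Col1a1 and Col3a1 in P56 replicate 6. E14.5 replicate 3 stands above replicates 1 and 2 of its age, and the P56 columns are dark for most rows.

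Among the fibrillar collagens, Col1a1 and Col1a2, which encode the chains of type I collagen, and Col3a1, which encodes the chain of type III, held most of the counts. Together they took 75.9% to 88.6% of all collagen counts in the libraries of P3, P10 and P21. The share was 55.5%, 64.9% and 76.9% in E14.5 replicates 1, 2 and 3, with 95% Wilson intervals of 52.9% to 58.1%, 62.9% to 66.9% and 76.3% to 77.4%. At P56 it was 66.0%, 63.7% and 55.3%. Intervals and floors cover counting error only. Per kilobase of exon, the mean level over the 15 libraries was 50.3 CPM for Col1a1, 33.4 for Col1a2, 20.4 for Col3a1 and 6.90 for Col6a1, and no other member exceeded 3.13.

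Col1a2 stood at 15.3, 15.3 and 231 CPM in the E14.5 libraries, at 202, 804 and 996 CPM at P3, at 877, 277 and 1040 CPM at P10, at 719, 488 and 432 CPM at P21, and at 29.8, 42.2 and 49.4 CPM at P56. All P21 libraries were above all E14.5 libraries and above all P56 libraries, while E14.5 replicate 3 overlapped P3. Col1a1 was at 5.99, 28.8 and 295 CPM at E14.5, at 153, 719 and 727 CPM at P3, at 645, 165 and 1004 CPM at P10, at 610.2, 305 and 252 CPM at P21, and at 9.36, 14.1 and 16.5 CPM at P56. Its highest E14.5 library was 49.3 times its lowest, the widest such ratio among the members for which one was formed (every library of the age with at least 10 counts), and E14.5 replicate 3 lay inside the range of P21 on this scale. Col3a1 was at 16.8, 18.5 and 143 CPM at E14.5, at 119.5, 205 and 575 CPM at P3, at 607, 148 and 449 CPM at P10, at 355, 197 and 136.5 CPM at P21, and at 13.8, 17.5 and 5.96 CPM at P56. Its exons overlap those of Gm47302 on the same strand in GENCODE M21, so its reads could be split. In all 3 genes the P56 libraries were below every library of P3, P10 and P21.

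Col5a1 and Col5a2, chains of type V collagen, which controls how fibrils begin, had estimated changes from E14.5 to P21 of -0.23 ± 1.01 and 1.74 ± 1.37 (edgeR adjusted p = 0.923 and 0.465). Col5a2 was at 0.0487, 0.636 and 18.6 CPM at E14.5, at 7.89 to 39.8 CPM at P3, at 16.1 to 45.3 CPM at P10, at 10.9 to 27.7 CPM at P21, and at 3.40, 0.0461 and 1.52 CPM at P56. Col5a1 was at 1.90, 3.39 and 16.1 CPM at E14.5, at 7.07 to 51.3 CPM at P3, at 8.03 to 23.1 CPM at P10, at 3.84 to 5.52 CPM at P21, and at 0.0493, 0.0461 and 1.08 CPM at P56. At P21 its libraries were below all P10 libraries and above all P56 libraries. Antisense transcripts overlap the exons of Col5a1, and whether the counts used strand is not given in the sources used here.

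**Figure D2:**
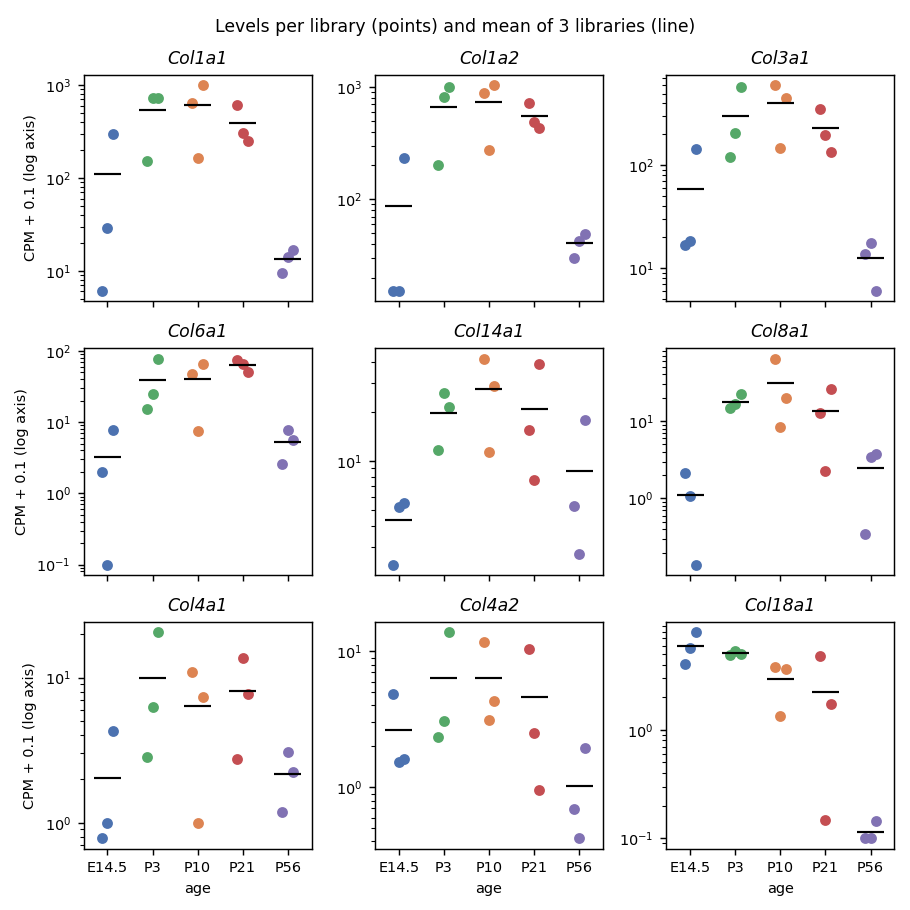
Level of 9 collagen genes by age, as CPM of the total count + 0.1 on log axes that differ between panels. Points are libraries in order of replicate number, lines are means of 3 libraries, and the E14.5 points of Col1a1 run from 5.99 to 295 CPM.

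Chains known from cartilage are described next, as a group chosen after their values were seen. Col2a1, the chain of type II collagen, was at 4.58, 0.0424 and 25.7 CPM at E14.5, at 3.90, 7.52 and 0.280 CPM at P3, and at 5.46, 0.0448 and 1.10 CPM at P10. At P21 and P56 it was listed with 2 counts in all, both in P21 replicate 3. Its P21 level, from counts summed over the age, was 352 times below that of E14.5, with a 95% counting interval of 97.1 to 2910. E14.5 replicate 3 held 648 of the 743 E14.5 counts, and without it the ratio was 70.7 (19 to 592). It was 533 without E14.5 replicate 2, 231 without P21 replicate 1 and at least 156 without P21 replicate 3. Col9a2, a chain of type IX collagen that sits on cartilage fibrils, was at 0, 1.40 and 7.11 CPM at E14.5 and had no count in any P21 library. With a floor of 3 counts over the age (0.0457 CPM), it was at least 67.0-fold lower at P21 than at E14.5. E14.5 replicate 3 held 179 of the 212 E14.5 counts, and without it the bound was 16.4-fold. Without P21 replicate 1 or 3 the bound was 43.9-fold and 44.5-fold. These values without a library were added after the data were seen. Col9a1 and Col9a3 had 8.34 and 11.8 CPM in E14.5 replicate 3 and at most 0.0424 CPM in the other E14.5 libraries. Neither Col2a1 nor Col9a2 passed the edgeR test in any comparison with all libraries and the filter on low counts (adjusted p = 0.0637 and 0.0661 for P21 vs E14.5). In P21 vs E14.5 both were called lower by edgeR with no filter (adjusted p = 0.0242 and 0.039) and by DESeq2 (0.000933 and 0.00572), Col2a1 by edgeR without E14.5 replicate 2 (0.0468) and Col9a2 by edgeR without E14.5 replicate 1 (0.0467). Col11a1 and Col11a2, chains of type XI, had estimated changes of 2.64 and 3.19 from E14.5 to P21 and were not called. Col11a1 was highest in P21 replicate 2 at 24 CPM and was at 0.0493, 0 and 1.48 CPM at P56. Of the rest of the fibrillar genes, Col5a3, Col11a2 and Col27a1 had at most 6.31 CPM in any library, and Col24a1 had a single count in 1 library.

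Basement membrane collagens were low at every age. Their summed level was 13.5, 11.4 and 16.7 CPM at E14.5, where replicate 3 did not stand far above the others, and 10.7 to 40.0 CPM at P3, 6.46 to 27.3 CPM at P10 and 10.2 to 17.8 CPM at P21. At P56 it was 3.40, 3.36 and 4.21 CPM, below every other library. They made up 19.7%, 11.8% and 1.92% of collagen counts in the E14.5 libraries, 0.68% to 1.78% from P3 to P21 and 2.9% to 4.24% at P56.

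Col4a1 and Col4a2 encode the chains of the common form of type IV collagen. Col4a1 was at 0.682, 0.891 and 4.21 CPM at E14.5, at 2.74, 6.21 and 20.5 CPM at P3, at 10.8, 0.897 and 7.2 CPM at P10, at 2.65, 13.6 and 7.63 CPM at P21, and at 1.08, 2.99 and 2.15 CPM at P56. Col4a2 was at 4.72, 1.44 and 1.51 CPM at E14.5, at 2.25, 2.96 and 13.7 CPM at P3, at 11.7, 3.00 and 4.20 CPM at P10, at 10.2, 2.43 and 0.863 CPM at P21, and at 0.591, 0.322 and 1.84 CPM at P56. The library with the highest Col4a1 at P21 was replicate 2 and that with the highest Col4a2 was replicate 1, so the pair did not move together within that age. Reads in their overlapping exons could be assigned to either gene.

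Col18a1, whose protein releases the fragment endostatin, was the member with the least spread at P3, at 4.82, 5.24 and 4.95 CPM. It was at 3.94, 5.56 and 7.87 CPM at E14.5, at 3.69, 1.25 and 3.52 CPM at P10, at 4.72, 0.0476 and 1.64 CPM at P21, and at 0, 0 and 0.0448 CPM at P56. The single P56 count put its level 141 times below P21, with a 95% counting interval of 24.9 to 5610. The ratio was 55.3 without P21 replicate 1, 93.4 without P56 replicate 5 and at least 30.7 without P56 replicate 6. Col4a5, a chain of another form of type IV collagen, was at 3.99, 2.54 and 2.26 CPM at E14.5, above every P3 library, and reached that range in only 1 later library, P10 replicate 3 at 3.99 CPM. Col15a1, a relative of Col18a1, stayed at or below 1.30 CPM in every library.

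Among the other collagens, Col6a1, a chain of type VI collagen, which forms beaded filaments around cells, had the highest mean level per kilobase. The summed level of the 6 type VI genes was 2.04, 1.48 and 32.5 CPM at E14.5, 26.1, 64 and 107 CPM at P3, 111, 25.2 and 110.2 CPM at P10, 105, 97.9 and 99.6 CPM at P21, and 6.60, 17.8 and 14.7 CPM at P56. The P21 libraries differed by a ratio of 1.08, the closest agreement of any collagen sum at any age. Col6a1 was at 1.90, 0 and 7.63 CPM at E14.5, at 15, 24.7 and 78.2 CPM at P3, at 48, 7.4 and 64.8 CPM at P10, at 73.7, 65.7 and 50.6 CPM at P21, and at 2.51, 7.55 and 5.51 CPM at P56. All its P3 and P21 libraries were above all its E14.5 libraries. Col6a2 was at 0.146, 1.19 and 19.6 CPM at E14.5, at 9.68, 25.9 and 29.1 CPM at P3, at 53.9, 15.1 and 43.8 CPM at P10, at 30.8, 28.0 and 38.5 CPM at P21, and at 3.74, 10.1 and 9.14 CPM at P56. Its E14.5 replicate 3 reached the range of P3, unlike that of Col6a1.

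Col14a1 encodes a collagen that binds to the surface of fibrils. It was at 2.24, 5.17 and 5.48 CPM at E14.5, at 11.6, 25.8 and 21.2 CPM at P3, at 41.9, 11.2 and 28.7 CPM at P10, at 15.3, 7.53 and 38.9 CPM at P21, and at 5.22, 2.62 and 17.8 CPM at P56. The E14.5 libraries were below all libraries of P3, P10 and P21, including replicate 3. Col8a1 encodes a short chain that forms hexagonal networks. It was at 2.04, 0.975 and 0.0397 CPM at E14.5, at 14.4, 16.6 and 22.2 CPM at P3, at 64.2, 8.16 and 19.9 CPM at P10, at 12.7, 2.19 and 25.5 CPM at P21, and at 0.246, 3.32 and 3.63 CPM at P56. Here E14.5 replicate 3, the highest library of its age for most collagens, was the lowest. Its partner Col8a2 was at 0.779, 0.0424 and 20.1 CPM at E14.5, at 6.04 to 19.6 CPM at P3, at 3.09 to 22.9 CPM at P10, at 36.5, 41.5 and 21.2 CPM at P21, and at 0.148, 7.92 and 6.05 CPM at P56. Col12a1, which also binds to fibrils, was at 0.0487, 5.60 and 6.91 CPM at E14.5, at 16.1, 14.8 and 68.6 CPM at P3, at 16.2 to 26.9 CPM at P10, at 5.12 to 28.4 CPM at P21, and at 0.0985, 0.599 and 3.72 CPM at P56. Of the tested genes of this class not yet named, Col16a1 reached 22.6 CPM (P10 replicate 3), Col26a1 17.1 CPM (P3 replicate 3) and Col6a3 13.4 CPM (P3 replicate 2), while Col19a1 and Col23a1 stayed at or below 6.47 CPM.

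Partner chains were not counted in a fixed ratio. The ratio of Col1a1 to Col1a2 counts ranged from 0.315 to 1.88 over 15 libraries, with a median of 0.730 (1.38 per kilobase of exon). Col3a1 to Col1a1 ranged from 0.286 to 2.80, with a median of 0.645. Col6a1 to Col6a2 ranged from 0.389 to 2.69 over the 13 libraries with at least 10 counts of each. The widest range was that of Col4a1 to Col4a2, from 0.144 to 8.84 over 14 libraries.

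The comparisons between ages were tested with edgeR, with 3 libraries per age, all 15 libraries in 1 fit and p-values adjusted by Benjamini-Hochberg over 14683 genes. Shares of all genes were worked out for the main edgeR fits alone. Calls by other tools, under other settings or without a library have no such share beside them. Levels beside the tests are CPM scaled by TMM, given as mean ± SD, and changes are log2 values with their SE, older minus younger. The SE is not an output of the test. It was taken as the size of the change over the square root of its F statistic. The spread between replicates was wide for collagens, with a median SE of 1.55 to 1.58 in each comparison against 0.52 to 0.53 for all genes.

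From E14.5 to P21, Col6a1, Col14a1 and Col8a1 rose, and no fall among the 29 tested collagen genes passed the test. Col6a1 went from 2.79 ± 3.47 to 69.1 ± 14.2 CPM, a change of 4.62 ± 1.19 (edgeR adjusted p = 0.0205). Col14a1 went from 3.76 ± 1.53 to 22.2 ± 17.1 CPM, a change of 2.56 ± 0.77 (edgeR adjusted p = 0.0444). Col8a1 went from 0.9 ± 0.895 to 14.53 ± 12.3 CPM, a change of 4.02 ± 1.23 (edgeR adjusted p = 0.0485). All 3 are in the class of other collagens. They were 3 of 29 genes (10.3%), against 7.81% of all genes that rose, 4.37% that fell and 12.2% called in either direction, so the share of collagens called was near the background. Col1a2 changed by 2.96 ± 0.93 and missed the threshold (edgeR adjusted p = 0.052), as did Col3a1 (2.27 ± 0.83, adjusted p = 0.0962) and Col1a1 (2.15 ± 1.03, adjusted p = 0.207).

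The median change over the 29 genes was 1.14, against -0.01 over all genes tested. The fibrillar median was 2.21, with 8 of 10 genes higher at P21, that of the basement membrane genes was -0.92 with 2 of 5 higher, and that of the others was 0.90 with 10 of 14 higher. On the TMM scale the P21 libraries were all above the E14.5 libraries for 8 of 29 genes (27.6%, against 16.1% of all genes), and for 6 as CPM of the total. They were all below for Col4a5 (3.4%, against 17.4% of all genes). Leaving out E14.5 replicate 3 changed the calls. Without it 7 genes were called, all higher at P21, which were Col1a1, Col1a2, Col3a1, Col5a2, Col6a1, Col6a2 and Col8a2, and the change of Col1a2 was 5.47 (edgeR adjusted p = 0.000569). Col14a1 and Col8a1 lost their calls in that fit (adjusted p = 0.1 and 0.121). E14.5 replicate 3 was singled out for its collagen levels. Calls and changes without it, here and in the other comparisons, are thus no separate support. Without E14.5 replicate 1, the call was Col9a2 alone, which was lower at P21. Without E14.5 replicate 2, Col6a1 was called higher and Col2a1 lower, and without P21 replicate 1 or P21 replicate 3 the call was Col6a1 alone.

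From E14.5 to P3, no collagen gene passed the edgeR test, where 2.06% of all genes did. At an unadjusted p under 0.05 there were 8 of 29 genes (27.6%, against 12.8% of all genes), all higher at P3, and DESeq2 called 4 and limma voom 0. The largest of these changes was that of Col8a1, 4.16 ± 1.24 (edgeR adjusted p = 0.123), and Col6a1 changed by 3.65 ± 1.14 (adjusted p = 0.143). The median change was 1.45, against 0.01 over all genes, and 22 of 29 estimates were positive. Col8a1, Col6a1, Col14a1 and Col12a1 were higher in all P3 libraries than in all E14.5 libraries (13.8% of 29 genes, against 13.4% of all genes), and Col4a5 was lower (3.4%, against 13%). Without E14.5 replicate 3, Col1a1, Col1a2, Col3a1 and Col6a2 were called higher at P3, with a change of 5.49 for Col1a2 (edgeR adjusted p = 0.00301).

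From P3 to P10 and from P10 to P21, no collagen gene was called by edgeR, where 0.402% and 1.14% of all genes were. In P10 vs P3 none had an unadjusted p under 0.05, against 10% of all genes, DESeq2 and limma voom called none, and the median change was 0.12. In P21 vs P10, Col9a2 and Col2a1 had an unadjusted p under 0.05 (6.9% of 29 genes, against 14.6% of all genes), DESeq2 called Col9a2 lower, limma voom called none, and the median was -0.28. From P3 to P10 the libraries did not overlap for Col18a1, which was lower at P10 (3.4% of 29 genes, against 9.35% of all genes), and no gene was higher in all of them (against 9.8%). From P10 to P21 they were lower for Col5a1, Col9a2 and Col16a1 (10.3%, against 8.92%) and higher on the TMM scale for Col8a2 (3.4%, against 8.8%). P10 replicate 2 was the lowest P10 library for most members, but no collagen gene was called in either comparison without it.

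From P21 to P56, the estimates of 25 of 29 collagen genes were negative, with a median change of -2.72 against 0 over all genes, and none passed the edgeR test, where 0.272% of all genes did. At an unadjusted p under 0.05 there were 10 genes (34.5%, against 11.7% of all genes), all lower at P56. DESeq2 called 5 lower, which were Col1a1, Col1a2, Col3a1, Col5a1 and Col18a1, and limma voom called 0. Col3a1 was at 251 ± 128 CPM at P21 and 14.8 ± 6.80 at P56, a change of -4.09 ± 0.91 (edgeR adjusted p = 0.0945). Col1a1 was at 426 ± 220 and 16.1 ± 4.80 CPM (-4.73 ± 1.17, adjusted p = 0.131), and Col1a2 at 596 ± 178 and 48.8 ± 13.3 CPM (-3.61 ± 0.95, adjusted p = 0.142). The P56 libraries were all below the P21 libraries for 11 of 29 genes (37.9%, against 6.22% of all genes), of which 6 were fibrillar, and above them for none (against 6.76%). The median was -3.63 for the fibrillar genes, -1.79 for the basement membrane genes and -2.34 for the others. Without P21 replicate 2, Col18a1 was called lower at P56 (edgeR adjusted p = 0.0273).

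**Figure D3:**
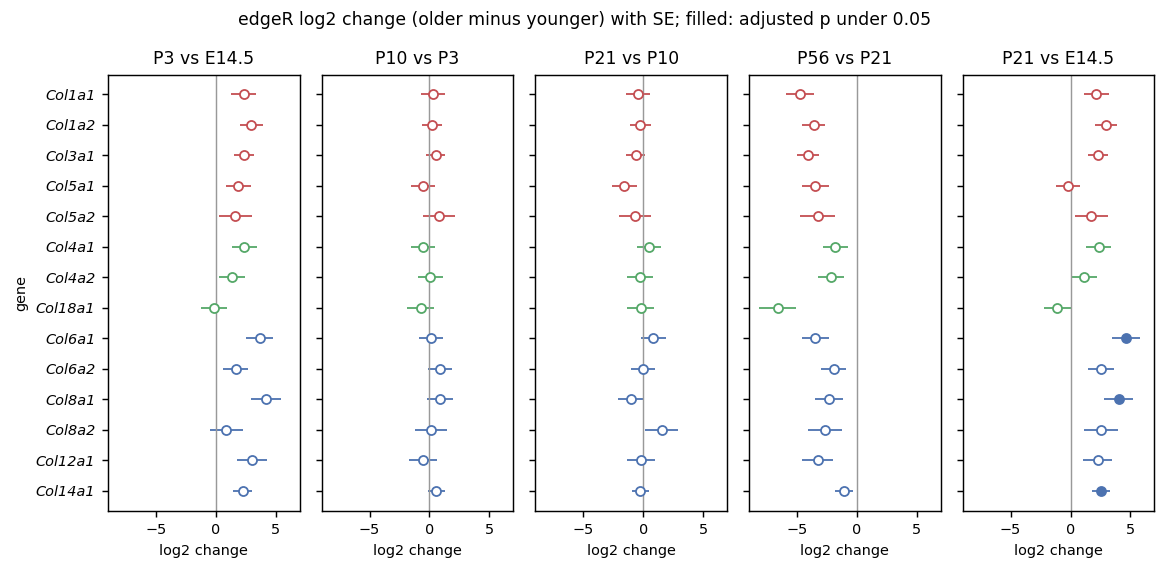
Log2 change, older minus younger age, with its SE (bars), derived from the edgeR F statistic, for 14 collagen genes in 5 comparisons. Colors give the class (red fibrillar, green basement membrane, blue other), and filled points, which are Col6a1, Col8a1 and Col14a1 in P21 vs E14.5, had an adjusted p under 0.05.

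A test of any difference among the ages from E14.5 to P21, all sequenced in a single project, called none of the 29 genes with edgeR, where 12.3% of all 14287 genes tested were called. At an unadjusted p under 0.05 there were 6 genes (against 26.4% of all genes), the smallest adjusted p was 0.0602, for Col14a1, DESeq2 called 3 and limma voom 1. Without E14.5 replicate 3 the edgeR count was 5, which were Col1a2, Col3a1, Col5a2, Col6a2 and Col8a2. Without P21 replicate 2 it was 2 (Col14a1 and Col8a1), and without P10 replicate 2 or P21 replicate 3 it was Col14a1 alone.

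The spread within ages was wide for collagen genes, and no narrower for several marker lists. The median SE of the edgeR changes, 1.55 to 1.58 for collagens over the 5 comparisons, was 1.67 to 1.73 for the tested fibroblast markers, 1.92 to 2.38 for osteoblast, 2.09 to 2.66 for chondrocyte and 1.87 to 2.11 for mural markers. It was narrower for Schwann and glial markers (1.19 to 1.29), macrophage markers (0.15) and matrix partners of fibrillar collagens (0.79 to 0.92). These lists were not matched for abundance. The biological coefficient of variation, which is the spread between replicates beyond counting error in the edgeR fit, had a median of 1.14 over the 29 genes, with a range of 0.614 (Col14a1) to 2.34, against a median of 0.462 over all genes. Since low genes vary more, each was set beside the tested genes of its own decile of abundance. Of the 29 genes, 27 were above the median of their decile and 14 were above 90% of it. Col1a1 had a larger coefficient than 100% of the genes of its decile to the digits given, Col1a2 and Col6a1 than 99.9% and Col3a1 than 99.7%. The exceptions were Col15a1 and Col18a1, above 24.9% and 28.8% of their deciles.

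As the SD of log2(CPM + 0.1), the median over the tested genes was 2.46 in the E14.5 libraries, then 1.40 at P3, 1.27 at P10 and 1.18 at P21, with the lowest value at P56, 0.91. The order from E14.5 to P56 was the same with a pseudocount of 1 CPM, with 1.44 at E14.5 and 0.48 at P56. Pooled over ages, the median SD within ages was 1.88, against 1.78 for the SD between age means. The SD within ages was the larger for 15 of 29 genes (51.7%), against 59.2% of all genes.

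**Figure D4:**
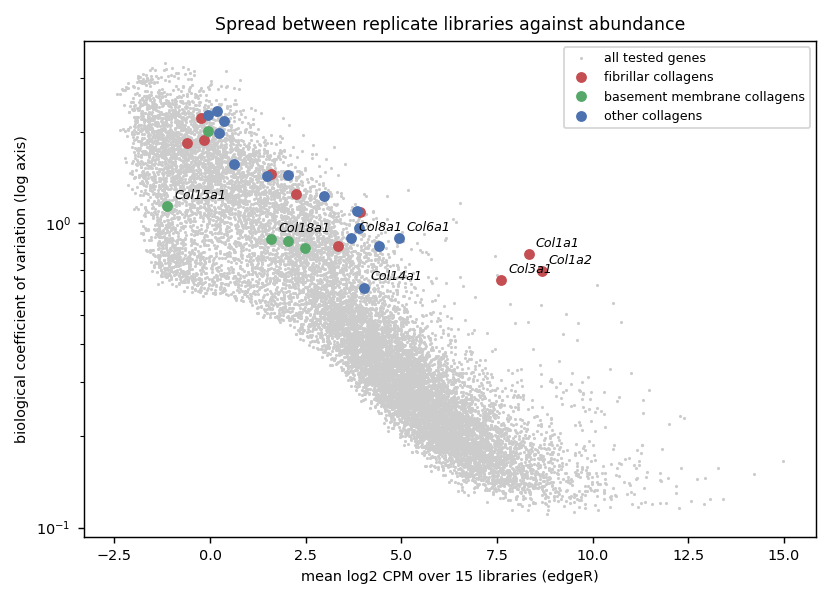
Biological coefficient of variation (log axis) against mean log2 CPM for all 14683 tested genes (grey) and the 29 tested collagen genes (colored by class). Col1a1, Col1a2 and Col3a1 lie far above grey points of like abundance, and Col15a1 and Col18a1 lie among them.

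The mean summed levels of fibroblast markers without Gsn, of osteoblast markers and of mural markers were higher at P3, P10 and P21 than at E14.5 and P56. That of collagens was too. Mean Dcn, Mfap4, Lum and Alpl had this shape, but not all members did. Mean Pdgfra was 3.72 CPM at E14.5 and 0.160 CPM at P3, Gsn and Ibsp were highest at E14.5, and Slc6a13 at P56. The mean summed level of chondrocyte markers was 10.7 CPM at E14.5 and 9.87 CPM at P3, where collagens had 345 and 1756 CPM. The part of these markers in the results was not tested. The fibroblast list had 17 of its 18 genes in the table, and Gsn alone gave 167 to 338 CPM of it in each library. Without Gsn, a sum chosen after its values were seen, it was 42.3, 17.9 and 55.4 CPM at E14.5, 102, 179 and 350.4 CPM at P3, 553, 137 and 394 CPM at P10, 271, 792 and 308 CPM at P21, and 94.2, 88.9 and 130.3 CPM at P56. Within E14.5, P3 and P56 its highest library was also the highest in collagens, and within P10 and P21 it was not. P21 replicate 2 had the most of these markers and P21 replicate 1 the most collagen. E14.5 replicate 3 had 55.4 CPM of these markers and 871 CPM of collagen, while P3 replicate 1 had 102 and 602. The highest library of Dcn was at 502 CPM, of Mfap4 at 166, of Lum at 126, of Fbln1 at 40.2, of Cd34 at 26.9, of Mfap5 at 18.6, of Pdgfrb at 13.4 and of Aldh1a2 at 11 CPM. The other 8, Twist1, Pdgfra, Crabp2, Pi16, Slc6a13, Dpt, Thy1 and Ngfr, stayed at or below 9.57 CPM. Dcn, Lum and Fbln1 are in this list and also in the list of matrix partners.

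Osteoblast markers (11 genes, with Mepe at 0 in every library and Dmp1 at 1 count in all) summed to 3.56 to 10.5 CPM at E14.5, 15.7 to 40.4 at P3, 19.0 to 42.9 at P10, 31.1 to 73.2 at P21 and 9.11 to 18.5 at P56, with Alpl the largest part of the sum in every library from P3 to P21. Chondrocyte markers (9 genes) summed to 5.39 to 20.4 CPM at E14.5, 2.97 to 18.3 at P3, 10.4 to 35.5 at P10, 7.76 to 81.2 at P21 and 5.67 to 12 at P56. Comp made up most of that sum at P21, while Acan stayed at or below 5.89 CPM. In E14.5 replicate 3, where Col2a1, Col9a1, Col9a2 and Col9a3 were highest, Sox9 was at 5.28 CPM and Cnmd at 7.39 CPM, against at most 0.0974 and 0.0487 CPM in the other E14.5 libraries. Matn3 (4.73 against 2.87 and 1.95 CPM), Hapln1 (1.03 against 0.146 and 0) and Acan (0.596 against 0 and 0) were also highest there. Matn1 (1.31 against 2.97 and 3.05 CPM) and Comp (0.0397 against 0.146 and 0.297) were lowest there, and Ucma and Snorc were at 0 in all E14.5 libraries. Mural cell markers (10 genes) summed to 2.51 to 38.2 CPM, with 3.26 to 5.68 at E14.5, 15.5 to 38.2 from P3 to P21 and 2.51 to 13.5 at P56. Endothelial markers (10 genes) summed to 58.4 to 148 CPM, of which Egfl7 alone gave 44.1 to 145 CPM, while Cldn5 and Emcn had at most 1.66 and 2.45 CPM. Schwann cell and glial markers (10 genes) summed to 208 to 965 CPM, of which Pmp22 gave 187 to 934 CPM, while Sox10 and Cdh19 had at most 0.893 and 0.0467 CPM.

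**Figure D5:**
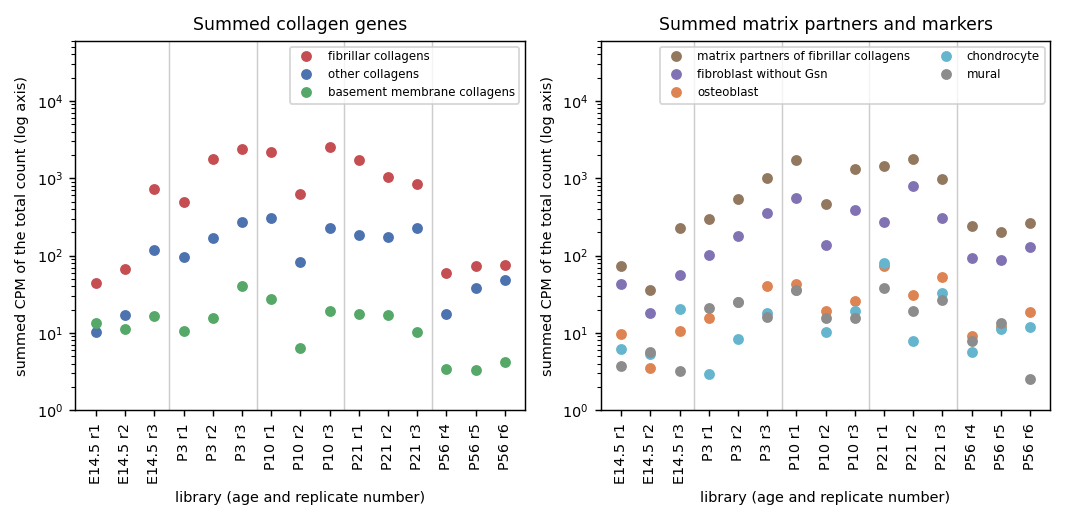
Summed CPM of the total count per library on log axes, for the collagen classes (left) and for matrix partners and cell type markers (right). Fibrillar collagens are at 59.4 to 76.7 CPM at P56, and E14.5 replicate 3 stands above replicates 1 and 2 in fibrillar and other collagens but little in basement membrane collagens.

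The genes that act on collagen did not all follow it. Of 11 tested matrix partners of fibrillar collagens, 8 rose from E14.5 to P21 and none was called lower (72.7% rose, against 7.81% of all genes), with a median change of 3.34. Sparc, which encodes a collagen-binding glycoprotein, was at 20.4, 16.4 and 112 CPM at E14.5 and at 987, 772 and 521 CPM at P21 (4.25 ± 0.74, edgeR adjusted p = 0.00165), and it also rose from E14.5 to P3 (2.88 ± 0.70, adjusted p = 0.05 to the digits given). Dcn, Fbln1 and Fmod, which encode matrix proteins of which decorin and fibromodulin bind collagen fibrils, changed by 5.54 ± 0.92, 4.01 ± 0.64 and 5.89 ± 1.24 (edgeR adjusted p = 0.00116, 0.000862 and 0.00637), and Bgn, Lum, Ogn and Prelp also rose. From P21 to P56 all 11 estimates were negative and none passed. Sparc was then at 134, 101 and 99.5 CPM (-2.64 ± 0.69, edgeR adjusted p = 0.138).

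Of 10 tested genes of procollagen processing and cross-linking, 3 rose from E14.5 to P21 and none was called lower (30% rose, against 7.81% of all genes). Pcolce, an enhancer of the enzyme that trims procollagen, went from 9.03 ± 5.86 to 77.4 ± 4.05 CPM (3.10 ± 0.57, edgeR adjusted p = 0.00241). Adamts2, which removes the amino-terminal propeptide, and the cross-linking enzyme gene Loxl1 changed by 5.62 ± 1.51 and 4.23 ± 1.19 (edgeR adjusted p = 0.0258 and 0.0322). Loxl3, next to Pcolce the highest of the list, was at 5.69 to 30 CPM in every library.

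Genes of chain folding and modification, which many cells that secrete proteins use, had a summed level of 2168 to 2270 CPM at E14.5, 2031 to 2200 at P3, 1516 to 2028 at P10, 1765 to 1857 at P21 and 1606 to 1901 at P56, with P4hb the largest part in every library. Single members could spread more. Serpinh1, the collagen chaperone, was at 11.7, 12.1 and 51.1 CPM at E14.5 and at 24.3, 82.2 and 107 CPM at P3. Of 19 tested, P3h2, a prolyl hydroxylase, rose from E14.5 to P21 (2.03 ± 0.48, edgeR adjusted p = 0.0131) and Plod1, a lysyl hydroxylase, fell by 0.54 ± 0.15 (edgeR adjusted p = 0.033), 5.3% in each direction against 7.81% and 4.37% of all genes. P4hb, a subunit of the enzyme that hydroxylates prolines, was at 654 to 980 CPM in every library.

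Genes of collagen degradation had a sum of 13340 to 17480 CPM over the 15 libraries, most of it the lysosomal protease gene Ctsb. Of 13 tested, 6 rose from E14.5 to P21 and none was called lower (46.2% rose, against 7.81% of all genes). The estimates of 11 were positive and those of Ctsk and Mmp9 negative. Mean Ctsk was 68.8, 278, 549, 28.6 and 2.14 CPM from E14.5 to P56, and mean Mmp9 was 237, 575, 418, 143 and 254 CPM. Both were called by the edgeR test of any difference from E14.5 to P21 (adjusted p = 0.0124 and 0.0458). Ctss, another lysosomal protease, went from 902 ± 145 to 2755 ± 276 CPM (1.61 ± 0.16, edgeR adjusted p = 1.9e-05). Timp2, an inhibitor of matrix metalloproteinases, changed by 0.96 ± 0.11, and the collagenase gene Mmp14 by 1.74 ± 0.36 (edgeR adjusted p = 4.72e-05 and 0.00537), and these 2 genes also rose from E14.5 to P3. Mmp2 went from 6.27 ± 7.22 to 40.2 ± 14 CPM (2.68 ± 0.69, edgeR adjusted p = 0.0212), and Mmp13 and Ctsb were also called higher. Without TMM scaling, the Ctsb libraries of the 2 ages overlapped. They were then at 9757 to 10970 CPM at E14.5 and 10370 to 11360 CPM at P21, with means of 10530 and 10830.

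Of 12 tested collagen receptors and uptake genes, Lair1, an inhibitory collagen receptor of immune cells, rose from 30.9 ± 7.81 to 134 ± 17.5 CPM between E14.5 and P21 (2.12 ± 0.32, edgeR adjusted p = 0.000525). Msr1, a scavenger receptor, rose by 0.46 ± 0.11 over that span and by 0.60 ± 0.11 from P10 to P21 (edgeR adjusted p = 0.015 and 0.0226). Both changes are on the TMM scale, which raises P21 levels against those of E14.5 and P10. These 2 were 16.7% of the list, against 7.81% of all genes that rose from E14.5 to P21. None was called lower in the 5 comparisons. Itgb1, an integrin chain gene of this list, was at 783 to 848 CPM at E14.5 and at 478 to 567 CPM at P21. It was called by the edgeR test of any difference from E14.5 to P21 (adjusted p = 0.00446). Of 9 tested partners of basement membrane collagens, none was called between E14.5 and P21, against 12.2% of all genes. At an unadjusted p under 0.05 there were 2 (22.2%, against 25.9% of all genes). Agrn, a heparan sulfate proteoglycan, fell from 2.96 ± 1.62 to 0.0201 ± 0.0348 CPM between E14.5 and P3 (edgeR adjusted p = 0.0252). Agrn was this low at P3 alone, with means as CPM of the total of 3.40 at E14.5, 3.71 at P10, 5.32 at P21 and 3.85 at P56. Nid2, the highest of that list, was at 116 to 209 CPM at E14.5 and at 16.8 to 64.8 CPM at P56. The edgeR test of any difference from E14.5 to P21 called Nid2, Agrn and Nid1 (adjusted p = 0.00241, 0.0247 and 0.0326). That test called 12.3% of all genes. From E14.5 to P21, mean Nid2 was 165, 155, 54.7 and 69.2 CPM, and mean Nid1 was 4.58, 20.4, 24.1 and 11.2 CPM. None of the genes of these 6 lists passed the edgeR test from P21 to P56. At an unadjusted p under 0.05 there were 6 of 11 matrix partners, 3 of 10 processing genes, 6 of 19 folding genes, 6 of 13 degradation genes, 2 of 12 receptors and 2 of 9 basement membrane partners, against 11.7% of all genes. The receptors, at 16.7%, were nearest to that share.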

How the data were processed

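Bulk RNA-seq was done on 15 libraries. Per the labels' protocols, cells were sorted into RNAprotect, RNA was extracted with PicoPure, and SMARTer v4 cDNA went into Nextera XT libraries. The deposited values were raw read counts per gene symbol, made with no normalization by the authors. Tools named in the submitters' processing notes are STAR 2.7.8a, featureCounts 2.0.2 and bcl2fastq 2.18. The genome build, strand setting and handling of multiply mapped reads are not given in the sources used here. The protocols name no molecular identifiers.

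The test was edgeR 4.0.16, run under R 4.3.3 (TMM, filterByExpr by age, robust quasi-likelihood F-tests, Benjamini-Hochberg, adjusted p under 0.05), with age as the only term. The E14.5 libraries had TMM factors of 1.123 to 1.158 and the P56 libraries 0.8071 to 0.8565, which sets TMM-scaled levels apart from CPM of the total. Labels do not tie each library to an animal, so p-values cover only the spread among these libraries, which may be in part technical. The test was checked on simulated data. Alternatives were RLE and upper quartile scaling, other filters, DESeq2 1.42.0, limma voom 3.58.1, fits of only the libraries compared, a replicate block, a log2 change of at least 1, other scales for the spread and leaving out each library.

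Collagen genes and lists were chosen with earlier results of these data known. Described singly were called members and the 5 members with the highest mean CPM in each class. From each list up to 4 called genes per comparison, by smallest p, and the 2 with the highest mean were eligible. The cartilage chains, Serpinh1, Ctsk, Mmp9, Itgb1 and single marker genes were named after their values were seen. Partly overlapping exons were found in GENCODE M21.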

Additional observations from a re-analysis of the deposited data

How the results depend on the processing

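The count of collagen genes called depended on the tool. The share of all genes called was not worked out for these alternatives, so the counts cannot be read as particular to collagens. DESeq2 called 4 in P3 vs E14.5, 1 in P21 vs P10, 5 in P56 vs P21, 7 in P21 vs E14.5 (5 higher, 2 lower) and 3 over any age. Limma voom called 6 in P21 vs E14.5 (Col1a2, Col3a1, Col6a1, Col6a2 and Col8a2 higher, Col4a5 lower) and 1 over any age (Col1a2). Fits of only the libraries compared, which tested 25, 18 and 21 of the 44 genes, called 2 in P3 vs E14.5 (Col14a1, Col8a1), 2 in P56 vs P21 (Col1a1, Col1a2) and 0 in P21 vs E14.5. With no filter the count in P21 vs E14.5 stayed at 3, but the genes were Col14a1 higher and Col2a1 and Col9a2 lower. Upper quartile scaling and no filter each called 1 over any age (Col14a1). Leaving out 1 library gave 0 to 4 calls in P3 vs E14.5, 0 to 1 in P56 vs P21, 1 to 7 in P21 vs E14.5 and 0 to 5 over any age, with 0 in the others. Nothing in the labels says that replicate numbers pair the libraries. Deviations of same-numbered libraries had r of -0.027 to 0.062 across genes, which shows no shared deviation but cannot exclude a pairing. With a replicate block the counts stayed at 0, except 3 in P21 vs E14.5, where Col1a2 (adjusted p = 0.0342) was called in place of Col8a1 (0.0629). Of the calls in P21 vs E14.5, Col6a1 was lost with no filter (adjusted p = 0.101), in the fit of only those libraries (0.0636) and without E14.5 replicate 1 (0.0904). Col14a1 was lost without any E14.5 library and without P21 replicate 1 or 3 (0.0644 to 0.165), with limma voom (0.127) and in the fit of only those libraries (0.0631). Col8a1 was lost under the same settings (0.0658 to 0.153) and with no filter (0.141). Pairs of gene and comparison with an unadjusted p under 0.05 in the main fit were followed, 31 in all, of which only 3 were calls. Of their 446 alternative values, 392 kept their side of the threshold, 19 fell below it, 35 passed it and 0 changed sign. The 19 all belong to the 3 calls, and most values that kept their side are of pairs not called. Since the pairs were chosen by p in these same data, the kept signs are no separate support. The causes were not tested. The SD of the tested members within an age, as the median over the 5 ages of each age's median, was 1.27, 0.87 with a pseudocount of 1 CPM and 1.25 on TMM-scaled totals. At depths of 17550170 to 30614583 counts, members listed at 0 at P56 are limited only to below 0.0466 CPM over that age.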
